A study of Mus musculus with 52 samples.

Results

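The genes described here are 36 genes of endoplasmic reticulum (ER) stress and of the response driven by the transcription factor Atf4, followed across 13 clones of a mouse kidney cell line. The rule takes them by symbol from a list that was drawn up with earlier results of these data known, and all 36 were found among the 24421 gene symbols counted in every library. By role they comprise 13 ER chaperones and folding factors, 5 genes of ER-associated degradation together with Xbp1, and 5 transcription factors of the Atf4 arm. The others are 4 Atf4 targets grouped as feeding back on signalling or metabolism, and 9 enzymes of amino acid and one-carbon metabolism. All 36 passed the filter on low counts in each comparison of groups.

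RNA was sequenced from Cilia-APEX-IMCD3 cells, an immortalised mouse inner medullary collecting duct line that carries the APEX enzyme in its primary cilium. Clones with homozygous missense changes in Wdr34 or Wdr60, the intermediate chains of the dynein-2 motor that moves cargo from the tip of the cilium to its base, were made with the cytosine base editor BE4-Gam. The study made an arginine-to-tryptophan and a glycine-to-serine change in Wdr34 and an alanine-to-valine change in Wdr60. The glycine-to-serine clone also carries an unintended heterozygous glycine-to-aspartate change in Wdr34, and it was not among the non-ciliated cells sequenced. The controls had received the same editor and a guide vector without a target sequence. Ciliated cells comprised 3 mutant clones (2 Wdr34 clones labelled 1 and 3, and 1 Wdr60 clone) and 4 clones named D8, H12, A4 and G7 that served as controls. The study's text speaks of 4 controls and, for its ciliated comparison, of 3, without naming which, so the comparison with all 4 labelled controls here need not be the study's own. Of the non-ciliated clones, 2 were mutant (1 Wdr34 and 1 Wdr60) and 4 were controls (AB, 1, 2 and 3). Each line is 1 clone grown from a single sorted cell, and each gave 4 technical replicate libraries per state. The study made 3 mutant clones in all, so that the non-ciliated mutants are lines that were also sequenced as ciliated cells. The study's methods speak of 4 control clones, and each state has 4 under different names, so control lines may recur between the states. Which names would match is not given, and each line in each state is counted here as 1 clone. Tests over libraries treat these as replicates and measure in part only the spread within a clone, so tests over clones are given beside them. For the ciliated Wdr34 clones the labels do not say which allele they carry. They list serum-containing growth medium for all libraries, whereas the study starved cells of serum to make them ciliate. Ciliation, serum and the time of sequencing therefore cannot be told apart in any comparison of the states.

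The ER folds secreted and membrane proteins, among them proteins bound for the cilium. When unfolded proteins build up in it, the sensors Ire1, Atf6 and Perk start the unfolded protein response. Ire1 splices the Xbp1 RNA and Atf6 is cut at the Golgi, and both then raise chaperone and degradation genes. Perk phosphorylates the initiation factor eIF2a, which lowers most translation and favours that of Atf4. Other kinases that sense missing amino acids or heme do the same, so that Atf4 targets respond to more than ER stress. Counts per gene do not show the translation of Atf4 or the splicing of Xbp1, and therefore the genes downstream of them are the readout here. Because dynein-2 mutants are proposed to have a transport defect, the question was whether mutant clones differ from controls in these genes.

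Library totals ranged from 14816218 to 28084979 counts, so that 1 count-per-million (CPM) equals 14.8 to 28.1 counts. The 36 genes together took 0.631% to 0.740% of the counts in ciliated control libraries and 0.633% to 0.728% in ciliated mutant libraries. In non-ciliated cells these shares were 0.879% to 1.20% in controls and 0.948% to 0.990% in mutants. Within a clone, 4 libraries stood apart, with a chi-square per degree of freedom over 25 against each of the clone's other libraries: replicate 1 of non-ciliated control AB (76.5 or more, where the other 3 differed by 5.53 or less), replicate 1 of the non-ciliated Wdr60 mutant (51.4 or more), replicate 1 of ciliated control A4 (27.6 or more) and replicate 4 of ciliated control G7 (43.9 or more). The 36 genes took 1.20% of the counts in that library of AB and 1.03% to 1.06% in its others. The ciliated Wdr60 mutant fell into 2 pairs, replicates 1 and 2 against 3 and 4, which differed by 45.4 to 104. Values without the 4 libraries are given beside the results they change. Wdr34 and Wdr60 RNA cannot check the labels, since a missense change need not alter the count. Clone means of Wdr34 were 46.1, 21.7 and 49.5 CPM in ciliated mutants 1, 3 and Wdr60 and 30.9 to 44.0 CPM in their controls. In non-ciliated cells they were 27.9 and 32.3 CPM in the Wdr34 and Wdr60 mutants and 22.2 to 31.9 CPM in controls. Wdr60 ran from 20.4 to 30.8 CPM over all 13 clones. Among the collecting duct and tubule markers, Cdh1 was at 14.4 CPM in ciliated control G7 and 4.22 CPM in non-ciliated control 2, against 241 to 649 CPM in the other 11 clones. Kidney-specific cadherin, Cdh16, was present in each clone, at 154 to 841 CPM. Epcam and Krt7 were also low in G7 and control 2, while the proximal tubule marker Lrp2 was at 447 and 272 CPM. Endothelial markers summed to 0.2 CPM or less in each clone, and fibroblast markers to 1.4 to 5.6 CPM except in ciliated Wdr34 clone 3, where they summed to 31.7 CPM.

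Some promoters of these genes carry the elements through which the response is known to act. Of the 36 genes, 33 had an entry in the RefSeq promoter table (GRCm38.p6), and the 250 bases before the start site were searched on both strands. The ER stress response element, spelled CCAAT, then 9 bases, then CCACG, is bound by Atf6 together with NF-Y. It was found in 8 of the 33 genes and in 22.2% of their 36 promoter windows, against 0.113% of all 32851 promoters in the table. The genes were Calr, Canx, Creld2, Dnajc3, Hsp90b1, Hspa5, Pdia6 and Syvn1, and Hsp90b1 held 2 matches. The shorter ER stress response element II, spelled ATTGG, then 1 base, then CCACG, was found in Herpud1 and in 0.0304% of all promoters. The C/EBP-ATF composite element, spelled TGATGNAA and bound by Atf4 with a C/EBP partner, was found in 6 genes, namely Asns, Chac1, Herpud1, Nupr1, Pycr1 and Vldlr. That is 16.7% of the windows of these genes against 3.45% of all promoters. The unfolded protein response element TGACGTGG was in none of the 36 windows and in 0.563% of all promoters. These are matches of letters, not measured binding sites. Genes and elements were both chosen from what is known of this response, so the shares are a description and were not tested.

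Windows of 5 genes were picked, with their values known, as examples of the elements in genes that the results name: Hspa5, Calr and Hsp90b1 carry the ER stress response element, Herpud1 carries both its shorter form and the composite element, and Chac1 carries the composite element. Each runs 5′ to 3′ along the gene and ends at the base before the start site, with the matched bases in capitals (on the opposite strand a match reads as its reverse complement).
Hspa5 (chr2:34771840-34772089, plus strand): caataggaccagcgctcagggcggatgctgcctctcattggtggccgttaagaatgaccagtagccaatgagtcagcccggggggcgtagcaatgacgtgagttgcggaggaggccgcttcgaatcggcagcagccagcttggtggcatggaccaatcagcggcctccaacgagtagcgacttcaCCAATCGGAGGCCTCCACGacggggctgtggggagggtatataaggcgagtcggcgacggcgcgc
Calr (chr8:84846932-84847181, minus strand): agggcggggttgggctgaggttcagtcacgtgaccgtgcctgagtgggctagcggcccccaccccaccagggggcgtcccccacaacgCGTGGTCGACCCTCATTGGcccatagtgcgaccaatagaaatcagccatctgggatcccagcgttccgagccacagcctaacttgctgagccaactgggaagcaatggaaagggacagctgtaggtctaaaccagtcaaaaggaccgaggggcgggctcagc
Hsp90b1 (chr10:86705445-86705694, minus strand): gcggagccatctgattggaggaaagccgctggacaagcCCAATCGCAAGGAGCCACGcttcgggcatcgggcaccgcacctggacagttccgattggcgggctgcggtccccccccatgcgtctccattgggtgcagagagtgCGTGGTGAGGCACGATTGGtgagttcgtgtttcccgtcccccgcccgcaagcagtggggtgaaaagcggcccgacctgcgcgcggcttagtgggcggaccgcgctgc
Herpud1 (chr8:94386179-94386428, plus strand): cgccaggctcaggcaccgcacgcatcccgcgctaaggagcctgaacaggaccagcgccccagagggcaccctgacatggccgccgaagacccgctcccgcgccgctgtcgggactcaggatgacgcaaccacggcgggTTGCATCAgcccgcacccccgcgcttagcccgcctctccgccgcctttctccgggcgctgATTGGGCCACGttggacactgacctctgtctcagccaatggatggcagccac
Chac1 (chr2:119350992-119351241, plus strand): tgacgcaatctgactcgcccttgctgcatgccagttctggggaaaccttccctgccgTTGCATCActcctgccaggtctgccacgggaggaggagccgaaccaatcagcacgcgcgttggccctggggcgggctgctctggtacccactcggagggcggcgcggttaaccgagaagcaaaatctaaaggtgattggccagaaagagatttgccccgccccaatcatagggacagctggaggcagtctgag

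The map of all 36 genes over the 13 clones shows the main division of the data, which runs between the states and not between mutants and controls. Chaperones and metabolic enzymes were mostly high in non-ciliated clones, mutant and control alike.

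**Figure D1:**
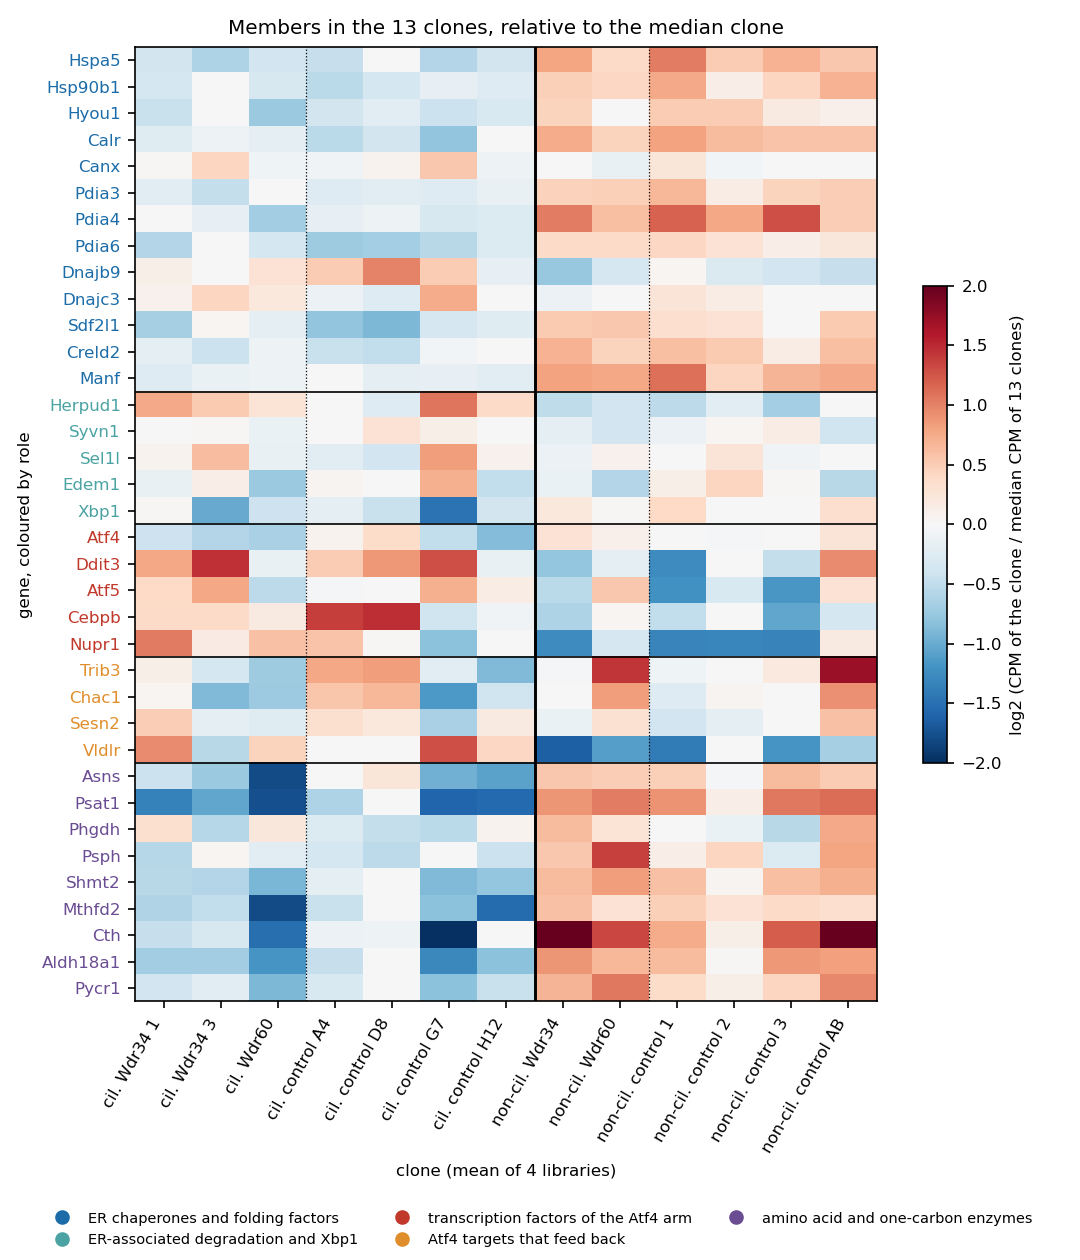
Heat map of the 36 genes (rows, grouped and coloured by role) in the 13 clones (columns, mean of 4 libraries), as log2 of the clone's CPM over the median CPM of the 13 clones. The solid line divides ciliated from non-ciliated clones and dotted lines divide mutant from control clones, and the colours end at 2 in either direction. The chaperones from Hspa5 to Manf and the enzymes from Asns to Pycr1 are mostly blue on the left and red on the right, and no row divides mutants from controls.

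In ciliated cells none of the 36 genes passed the test between the 3 mutant and 4 control clones. Genes were tested with edgeR's quasi-likelihood F test on libraries, over all 11950 genes that passed the filter, and called where the adjusted p (Benjamini-Hochberg) was under 0.05 and the log2 fold change was 1 or more in either direction. Of the 36 genes, 0 were called higher and 0 lower, where 0.418% of all genes tested were called higher and 0.226% lower. At an adjusted p under 0.05 alone, 0 genes were higher and 0 lower, against 1.58% and 1.59% of all genes. That count rests on which clones enter. Without control G7, 3 genes were higher (Dnajc3, Herpud1 and Sel1l) and 9 lower (Aldh18a1, Asns, Atf4, Cebpb, Chac1, Cth, Psat1, Shmt2 and Trib3) at an adjusted p under 0.05 alone, where 7.97% and 8.82% of all genes were. Without H12, 3 were higher (Calr, Pdia6 and Phgdh) and 7 lower (Asns, Atf4, Dnajb9, Edem1, Psat1, Syvn1 and Trib3), against 5.63% and 7.24%. Leaving out D8 gave 0 (1.11% of all genes higher and 0.81% lower), and leaving out A4 gave Nupr1 alone, which was higher (1.09% and 1.41%). Leaving out the libraries that stood apart also gave 0 (1.72% and 1.94%). Without mutant clone 1 it was Pdia6 higher and Asns lower (3.1% and 2.07% of all genes), and without mutant clone 3 it was Nupr1 and Phgdh higher and Hyou1 lower (2.25% and 3.34%). In 0 genes did all mutant clone means lie above or below all control clone means, against 1.07% and 0.803% of all genes. DESeq2 also called 0. At an unadjusted p under 0.05 stood 13 of the 36 by edgeR, against 19.2% of all genes, and 14 by DESeq2, against 16.3%. With the libraries of a clone summed it was 0, against 1.12%. Log2 fold changes ran from -0.57 to 0.62 with a median of -0.03, against -0.01 over all genes. The exact 2-sided permutation test over clone means, which cannot go below 0.0286 for 3 against 4 clones, gave 0.171 or more for each gene named in the next 3 paragraphs.

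The readouts of the chaperone arm overlapped between ciliated mutants and controls. Hspa5 encodes BiP, the main ER chaperone and the usual marker of ER stress. Its level was 517, 437 and 512 CPM in mutants 1, 3 and Wdr60 and 667, 519, 487 and 446 CPM in controls D8, H12, A4 and G7, all clone values below being given in this order. The mutants lay within the control range but for clone 3, just under the lowest control, with a log2 fold change of -0.12 ± 0.082 (SE, adjusted p = 0.432). Dnajb9, a co-chaperone of BiP and an Xbp1 target, was at 28.9, 26.8 and 32.7 CPM in mutants and 53.2, 23.9, 38.1 and 38.1 CPM in controls, which overlapped. Herpud1, a membrane protein of the degradation machinery, was at 100.3, 86.0 and 72.2 CPM in mutants and 49.7, 78.0, 60.1 and 126 CPM in controls. Its controls spanned a wider range than its mutants, from D8 to G7. Xbp1 was at 49.4, 24.1 and 36.5 CPM in mutants and 35.7, 37.8, 42.9 and 17.5 CPM in controls, lowest in G7 and in mutant clone 3. The log2 fold changes were -0.38 ± 0.156 for Dnajb9, 0.12 ± 0.164 for Herpud1 and 0.13 ± 0.172 for Xbp1 (SE, adjusted p = 0.167, 0.731 and 0.740). Over the 13 chaperones and folding factors, log2 fold changes between ciliated mutants and controls ran from -0.38 to 0.28 with a median of -0.01.

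In the Atf4 arm mutants and controls overlapped, and the control clones lay far apart. Atf4 itself was at 374, 332 and 318 CPM in mutants and 644, 273, 524 and 356 CPM in controls, with D8 and A4 above every mutant and H12 below every mutant. Ddit3, which encodes the pro-apoptotic factor CHOP, was at 46.1, 74.2 and 24.4 CPM in mutants and 49.5, 24.4, 38.5 and 66.0 CPM in controls. Mutant clone 3 had its highest clone mean and the Wdr60 mutant its lowest, near that of control H12. Trib3, a pseudokinase that restrains Atf4 and CHOP, was at 59.4, 42.7 and 33.4 CPM in mutants and 97.2, 29.6, 92.99 and 46.4 CPM in controls. Chac1, a glutathione-degrading enzyme, was at 42.9, 22.7 and 25.5 CPM in mutants and 66.5, 31.8, 61.7 and 19.0 CPM in controls. In both genes D8 and A4 were the highest ciliated clones, and the lowest was a control too, H12 for Trib3 and G7 for Chac1. The log2 fold changes were -0.40 ± 0.159 for Atf4, 0.10 ± 0.228 for Ddit3, -0.56 ± 0.228 for Trib3 and -0.56 ± 0.2499 for Chac1 (SE, adjusted p = 0.160, 0.851, 0.167 and 0.213). With the libraries of each clone summed, the SE of Trib3 and Chac1 rose to 0.427 and 0.443, and a p that misses the threshold does not show that the levels were alike. Technical replicates of 1 clone also differed in these genes: Chac1 ran from 12.6 to 37.6 CPM and Atf4 from 176 to 405 CPM between the 4 libraries of the ciliated Wdr60 mutant.

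Asns, asparagine synthetase and a standard Atf4 readout, was at 139.9, 113 and 54.7 CPM in mutants and 222, 89.9, 188 and 97.3 CPM in controls. Again D8 and A4 stood above all mutants, and H12 and G7 below mutants 1 and 3. Psat1, of serine synthesis, showed the same pattern at 124, 154 and 93.6 CPM in mutants and 317, 108, 206 and 106 CPM in controls. Aldh18a1, of proline synthesis, was at 148, 148 and 106 CPM in mutants and 239, 136, 173 and 97.8 CPM in controls. Cth, which makes cysteine from cystathionine, was low throughout at 4.22, 4.67 and 2.05 CPM in mutants and 5.41, 5.83, 5.38 and 1.32 CPM in controls. The log2 fold changes were -0.55 ± 0.217, -0.57 ± 0.209, -0.27 ± 0.147 and -0.30 ± 0.271 for Asns, Psat1, Aldh18a1 and Cth (SE, adjusted p = 0.157, 0.126, 0.312 and 0.588). Nupr1, a stress-induced chromatin protein, had the highest log2 fold change of the 36 genes at 0.62 ± 0.192 (SE, adjusted p = 0.0717). By DESeq2 its adjusted p was 0.0365, short of a call by its fold change, and with clones summed it did not pass. It was at 80.4, 43.8 and 58.6 CPM in mutants and 39.8, 39.0, 57.8 and 22.0 CPM in controls, with control A4 level with the Wdr60 mutant. D8 held the highest clone mean among the 7 ciliated clones for 13 of the 36 genes (36.1%, against 18.4% of all genes), and the Wdr60 mutant the lowest for 11 (30.6%, against 11.1%).

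**Figure D2:**
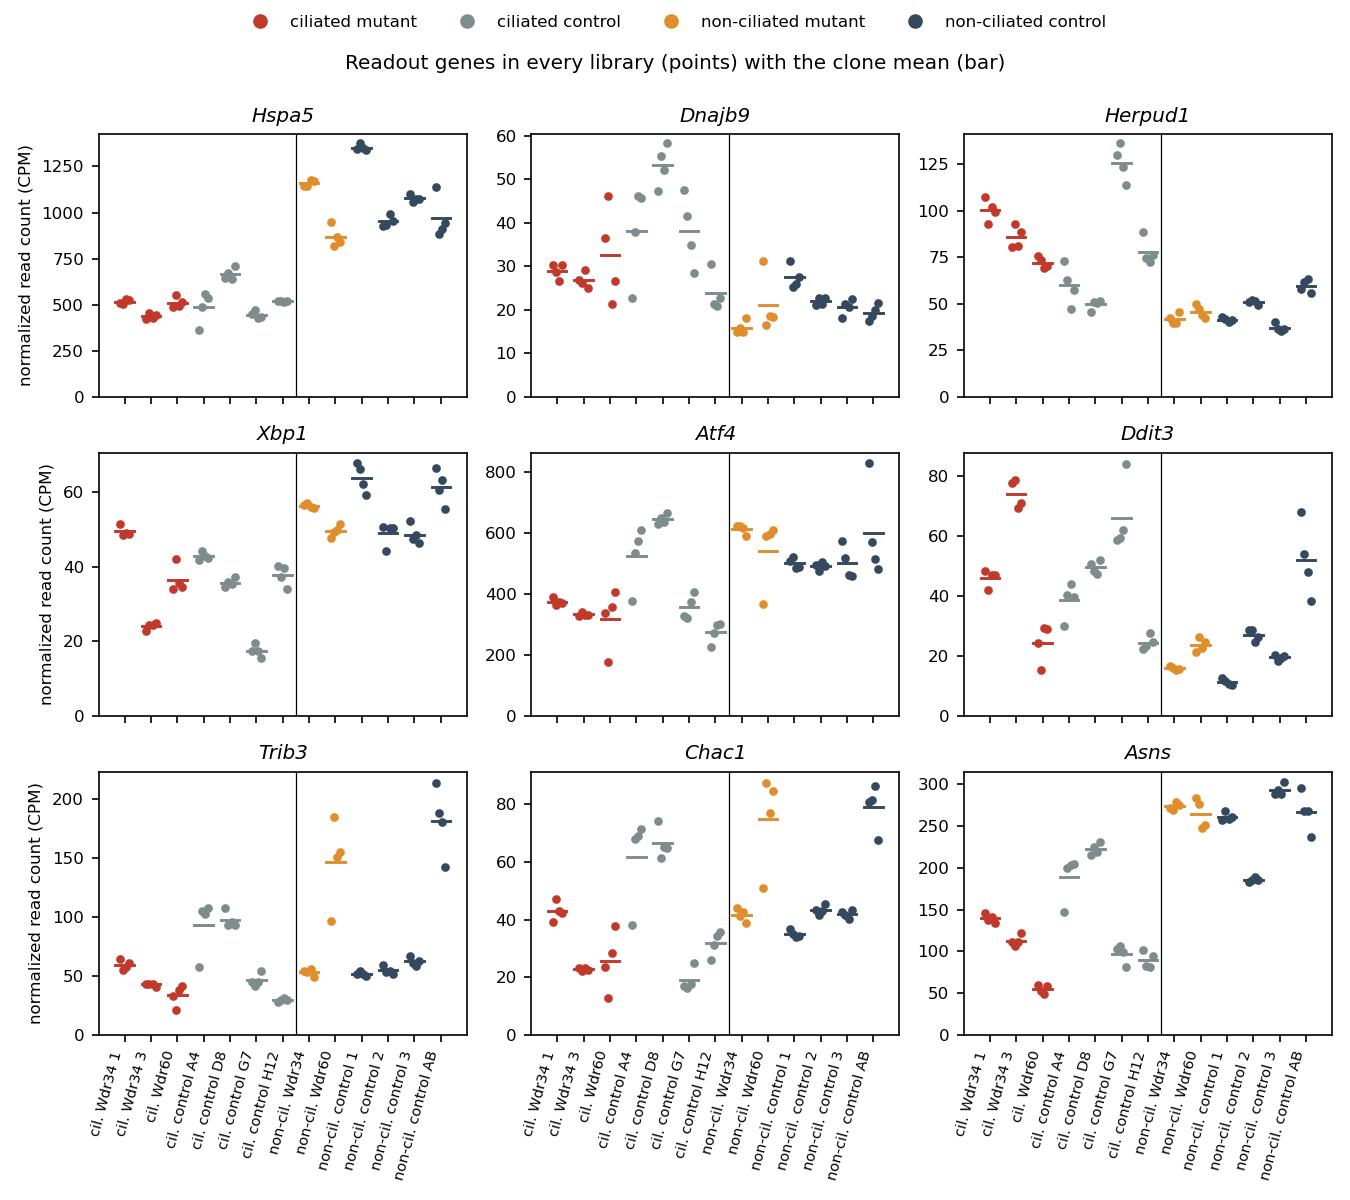
CPM of 9 readout genes in all 52 libraries (points, 4 to a clone) with the clone mean (bar) on linear axes that start at 0, coloured by state and genotype. Mutant and control clones overlap in every panel within a state. Hspa5 and Xbp1 sit lower to the left of the line, in ciliated clones, and Trib3 and Chac1 stand out in non-ciliated control AB and the non-ciliated Wdr60 mutant.

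Taken clone by clone against the 4 controls of its state, each mutant had 1 or 2 genes called, and no gene was called in more than 1 clone. These tests compare the libraries of 1 clone with those of the controls, so that genotype and clone cannot be told apart. With the libraries of each clone summed, 0 of the 36 and 0% of all genes tested were called in each of the 5 mutants, so that such a fit calls no gene in 1 clone and the calls that follow were made over libraries. Nupr1 was called higher in ciliated Wdr34 clone 1 (80.4 ± 6.27 CPM, SD over 4 libraries, log2 fold change 1.02, adjusted p = 0.0351), where 0.679% of all genes were called, but it was not called without control D8, without control G7 or without the libraries that stood apart. Vldlr, a lipoprotein receptor, was called lower in ciliated Wdr34 clone 3 (210.3 ± 11.8 CPM, log2 fold change -1.11, adjusted p = 0.0134), where 5.80% were called. Without control G7 Vldlr was no longer called and Chac1 was called lower in its place, where 13.1% of all genes were called. At an adjusted p under 0.05 alone Hsp90b1, Hyou1 and Pdia6 were higher in Wdr34 clone 3 and Pdia3 and Vldlr lower. Of all genes 9.85% were higher and 10.9% lower. The median log2 fold change of the chaperones and folding factors there was 0.26, against -0.04 over all genes. In this clone 2 of 6 fibroblast markers were above 1 CPM, and nearly all of their sum was Dcn at 29.2 CPM, the 1 of the 2 tested that was called higher, while Col1a2 and Pdgfrb were near 0. Of 11 collecting duct and tubule markers 2, Krt8 and Krt18, were called lower. The part of these markers in the result was not tested. Asns and Mthfd2, a mitochondrial one-carbon enzyme, were called lower in the ciliated Wdr60 clone, where 1.93% of all genes were called. Asns was at 54.7 ± 5.22 CPM there (log2 fold change -1.45, adjusted p = 0.00983) and Mthfd2 at 40.6 ± 7.91 CPM (log2 fold change -1.20, adjusted p = 0.0268), against 48.4 CPM of Mthfd2 in control H12. Asns remained called with any 1 control left out, and Mthfd2 did not without D8 or without A4. Without H12, Ddit3, Edem1, Psat1 and Trib3 were called lower in this clone as well (6 genes, where 3.74% of all genes were called), and without G7 it was Chac1, Cth and Psat1 (5 genes, against 3.27%). The Wdr60 clone lay below all 4 controls in 11 of the 36 genes and above them in 4, where 13.8% and 16.5% of all genes did. Wdr34 clone 1 lay below in 3 and above in 5 (10.5% and 11.7% of all genes), and Wdr34 clone 3 below in 4 and above in 7 (16.5% and 17.4%).

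In non-ciliated cells the 2 mutant and 4 control clones likewise gave 0 genes called higher and 0 called lower, where 0.491% of the 12012 genes tested were called higher and 2.57% lower. DESeq2 also called 0, where it called 0.594% of all genes higher and 2.89% lower. At an adjusted p under 0.05 alone, 2 genes were higher and 1 lower, against 7.12% and 7.89% of all genes. Without control AB these were 11 higher and 4 lower (Dnajb9, Dnajc3, Edem1 and Syvn1), against 14.8% and 16.3%. The 11 were Atf4, Atf5, Nupr1, Trib3, Chac1, Sdf2l1 and the enzymes Cth, Phgdh, Psph, Pycr1 and Shmt2. Without the libraries of AB and of the Wdr60 mutant that stood apart, 8 were higher (Atf4, Atf5, Cth, Pdia6, Phgdh, Psph, Pycr1 and Sdf2l1) and 5 lower (Canx, Dnajb9, Dnajc3, Edem1 and Vldlr), against 13.6% and 15.1% of all genes, and Cth was called higher (0.631% of all genes). By edgeR 11 of the 36 stood at an unadjusted p under 0.05, close to the 30.3% of all genes, and 0 did with the libraries of a clone summed, against 4.34%. In 0 genes did mutant and control clone means part, against 6.90% of all genes higher and 6.09% lower. The median log2 fold change was 0.05, against 0.00 over all genes.

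With all libraries the genes past the adjusted p alone were Psph, Cth and Vldlr. Which genes passed depended on the libraries that entered. With the replicate number as a block only Psph passed, where 5.65% of all genes were higher and 5.94% lower. Without replicate 2, 3 or 4 no gene did, where 1.52% to 1.94% of all genes were higher and 1.94% to 2.15% lower. Without replicate 1 it was Atf4, Phgdh, Psph and Sdf2l1 higher and Dnajb9 and Dnajc3 lower (10.7% and 11.6% of all genes). Psph, the last enzyme of serine synthesis, was at 49.6 and 88.6 CPM in the Wdr34 and Wdr60 mutants and 59.0, 37.5, 46.4 and 28.2 CPM in controls AB, 1, 2 and 3, with a log2 fold change of 0.69 ± 0.178 (SE, adjusted p = 0.0112). The Wdr60 mutant lay above all controls and the Wdr34 mutant below control AB. Cth was at 33.5 and 14.8 CPM in mutants and 23.7, 9.74, 6.30 and 13.5 CPM in controls, a log2 fold change of 0.86 ± 0.281 (SE, adjusted p = 0.0404), highest in the Wdr34 mutant. Vldlr was at 100.2 and 144 CPM in mutants and 195, 117, 312 and 137 CPM in controls, a log2 fold change of -0.65 ± 0.219 (SE, adjusted p = 0.0468), and control 2 stood far above the rest. The exact permutation test over 2 against 4 clones, whose smallest p is 0.0667, gave 0.200, 0.267 and 0.400 for these genes. In single clones, Cth was called in the Wdr34 mutant (log2 fold change 1.34, adjusted p = 0.0124), where 2.24% of genes were called. Without control 1, Ddit3 and Vldlr were called lower there too, and without control 3 Vldlr was (3.37% and 2.37% of all genes called). Psph was called in the Wdr60 mutant (log2 fold change 1.05, adjusted p = 0.00177), where 3.41% were called, but not without control 1 or without control 3. Atf5 was called higher there too without the libraries that stood apart, and Atf5 and Trib3 without control AB (4.17% and 6.38% of all genes called).

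The ER stress readouts of non-ciliated mutants overlapped with those of their controls. Hspa5 was at 1159 and 869.5 CPM in mutants and 968, 1353, 952 and 1077 CPM in controls, with control 1 the highest and the Wdr60 mutant the lowest. Dnajb9 was at 15.9 and 21.2 CPM in mutants and 19.4, 27.5, 22.0 and 20.6 CPM in controls. Herpud1 was at 41.8 and 45.9 CPM in mutants and 59.6, 41.6, 51.0 and 37.2 CPM in controls. The spread of both mutants fell inside the control range for Herpud1, and the Wdr34 mutant was lowest for Dnajb9. Xbp1 was at 56.3 and 49.6 CPM in mutants and 61.4, 63.9, 49.0 and 48.6 CPM in controls. Atf4 was at 612 and 539 CPM in mutants and 598, 500.0, 491 and 502 CPM in controls, with control AB between the mutants. Ddit3 was at 15.9 and 23.8 CPM in mutants and 52.04, 11.3, 27.1 and 19.5 CPM in controls. For Ddit3 the clone mean of AB was about 4.6 times that of control 1, which was the lowest of all 13 clones. Trib3 was at 53.0 and 147 CPM in mutants and 181, 51.6, 54.5 and 62.2 CPM in controls. Chac1 was at 41.7 and 75.1 CPM in mutants and 79.0, 34.99, 43.4 and 42.0 CPM in controls. In both genes the Wdr60 mutant and control AB were high together and the other 4 clones were low, so that the high clones were 1 mutant and 1 control. Asns was at 274 and 265 CPM in mutants and 267, 261, 186 and 293 CPM in controls, where control 2 was the lowest. The log2 fold changes of these 9 genes ran from -0.47 for Ddit3 to 0.23 for Chac1, with adjusted p-values of 0.114 or more.

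**Figure D3:**
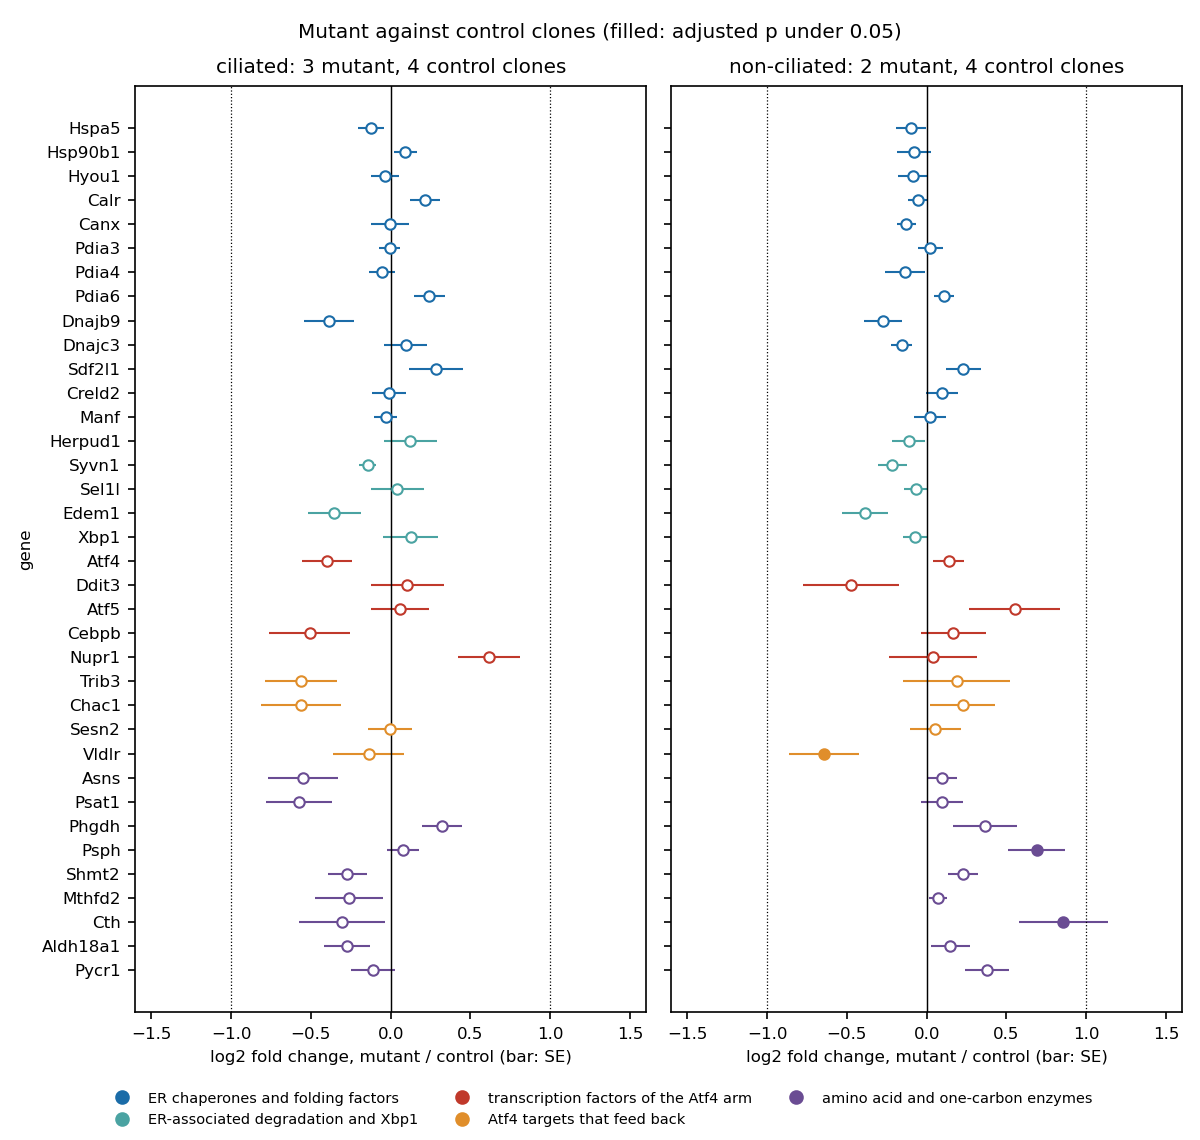
Log2 fold change of mutant over control clones with its SE for each of the 36 genes, in ciliated cells (left) and non-ciliated cells (right). Dotted lines mark a log2 fold change of 1 in either direction and filled points an adjusted p under 0.05. All points lie between the dotted lines, and only Vldlr, Psph and Cth in non-ciliated cells are filled.

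Whether the mutant effect differed between the states was tested directly (edgeR interaction, 12544 genes), and 0 of the 36 genes were called, against 1.19% of all genes. The smallest adjusted p was 0.105, for Psph, with a difference of -0.61 on the log2 scale between the effect in ciliated and that in non-ciliated cells. By edgeR 10 of the 36 stood at an unadjusted p under 0.05, against 14.4% of all genes. DESeq2 called 0 of the 36 and 1.53% of all genes. With the libraries of a clone summed 0 were called, as were 0% of all genes, so that the calls that follow were made over libraries. Leaving out control AB brought 3 calls, of Chac1, Cth and Trib3, where 1.98% of all genes were called. Leaving out control G7 brought 2, of Chac1 and Cth, near the 4.68% of all genes. Leaving out the non-ciliated Wdr60 mutant brought 1, of Cth, as did leaving out the 4 libraries that stood apart (1.43% and 1.45%). With all clones 0 of the 36 stood at an adjusted p under 0.05 alone. Without G7 it was 4 with a positive and 9 with a negative difference (7.6% and 4.59% of all genes). Without AB it was 0 and 6 (2.77% and 1.27%), and without H12 1 and 4 (2.18% and 1.62%). Without the libraries that stood apart it was 0 and 2, Atf4 and Cth (2% and 1.36%). With a mutant clone left out, the difference was negative for Psph without non-ciliated Wdr34 (1.02% and 0.425%) and for Cth without non-ciliated Wdr60 (1.96% and 1.18%). It was negative for Asns without ciliated Wdr34 clone 1 (2.17% and 0.75%).

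Between the states, by contrast, most of the 36 genes differed in controls at an adjusted p under 0.05 alone, as did 60.9% of all genes. Among control clones, 6 genes fell in ciliated cells (Hspa5, Calr, Pdia4, Psat1, Cth and Aldh18a1) and 2 rose (Cebpb and Vldlr), where 3.99% of the 11856 genes tested were called lower and 6.29% higher. At an adjusted p under 0.05 alone, 20 were lower and 8 higher, against 29.7% and 31.2% of all genes. For 17 of the 36 genes all 4 ciliated controls lay below all 4 non-ciliated controls, which held for 12.5% of all genes. For 0 genes did they all lie above, against 10.7%. The median log2 fold change of ciliated over non-ciliated controls was -0.64, against 0.02 over all genes. Separation of 4 from 4 clones gives the smallest p the exact permutation test allows, 0.0286, and adjusted over all genes tested this becomes 0.123, so that no gene passes by clones alone in that test. With the libraries of each clone summed, edgeR left 14 genes lower and 0 higher at an adjusted p under 0.05, against 7.33% and 6.11% of all genes. Of the cell type markers tested between these states, 1 of 11 of collecting duct and tubule was called higher. Called lower were 1 of 2 of proximal tubule and the 1 fibroblast marker tested. The part of these markers in the result was not tested. In bulk RNA, less RNA per cell and fewer cells of a kind cannot be told apart.

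Of the 13 ER chaperones and folding factors, 10 were lower in ciliated controls and 1 was higher at an adjusted p under 0.05 alone, against the 29.7% and 31.2% of all genes given above. Each of these 10 was without overlap between the clones of the states, and 3 were called. All 10 also passed the adjusted p with the libraries of a clone summed. In a fit with the clone as a block (voomLmFit) Sdf2l1 did not pass and the others did, where 13.5% of all genes were lower. Hspa5 was at 667, 519, 487 and 446 CPM in the ciliated and 968, 1353, 952 and 1077 CPM in the non-ciliated controls, a log2 fold change of -1.03 ± 0.087 (SE, adjusted p = 1.04e-11). Calr, the lectin chaperone calreticulin, was at 555, 715, 489.8 and 414 CPM in ciliated and 1066, 1249, 1114 and 1067 CPM in non-ciliated controls (log2 fold change -1.04 ± 0.085, SE, adjusted p = 4.21e-12). Pdia4, a protein disulfide isomerase, was at 113, 99.3, 107 and 96.2 CPM in ciliated and 169, 272, 206 and 292 CPM in non-ciliated controls (log2 fold change -1.18 ± 0.086, SE, adjusted p = 4.42e-13). The highest ciliated control stayed well below the lowest non-ciliated control in all 3 genes. The other 7 were Hsp90b1 (the ER form of Hsp90), Hyou1, Pdia3, Pdia6, Sdf2l1, Creld2 and Manf, with log2 fold changes from -0.90 for Manf to -0.66 for Hyou1. Canx, the membrane-bound partner of calreticulin, and Dnajc3, an inhibitor of Perk, had log2 fold changes of 0.09 and 0.04 and did not pass. Both hold matches to the ER stress response element, as Hspa5 and Calr do. Without the controls G7 and 2, whose epithelial markers were low, 6 genes were still called lower, with Hsp90b1 in place of Calr, where 4.93% of all genes were. Dnajc3 was then lower at an adjusted p under 0.05 alone, as it was without G7 only (33.3% and 31.4% of all genes). Hspa5 and Calr were close to the limit of 1: neither was called without control 1 or without G7, nor Hspa5 without A4 or without the libraries that stood apart, though at an adjusted p under 0.05 alone both passed in each of these.

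Dnajb9 went the other way from the chaperones it works with, at 53.2, 23.9, 38.1 and 38.1 CPM in ciliated and 19.4, 27.5, 22.0 and 20.6 CPM in non-ciliated controls, a log2 fold change of 0.78 ± 0.135 (SE, adjusted p = 9.02e-06) with H12 inside the non-ciliated range. Herpud1, with the shorter response element, was at 49.7, 78.0, 60.1 and 126 CPM in ciliated and 59.6, 41.6, 51.0 and 37.2 CPM in non-ciliated controls, a log2 fold change of 0.73 ± 0.150 (SE, adjusted p = 0.000100). Only D8 among the ciliated controls lay below the highest non-ciliated control, AB. Xbp1 was at 35.7, 37.8, 42.9 and 17.5 CPM in ciliated and 61.4, 63.9, 49.0 and 48.6 CPM in non-ciliated controls, without overlap (log2 fold change -0.73 ± 0.130, SE, adjusted p = 1.37e-05). Syvn1, the ubiquitin ligase of ER-associated degradation, differed by 0.18 on the log2 scale at an adjusted p of 0.0248. Without AB, without control 1 or without D8 Syvn1 did not pass, nor did it without replicate 2, 3 or 4. Its partner Sel1l and the mannosidase-like Edem1 did not pass, at log2 fold changes of 0.11 and 0.09. With the libraries of a clone summed, Dnajb9, Herpud1 and Xbp1 had adjusted p-values of 0.0724, 0.137 and 0.0936.

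The metabolic enzymes were all lower in ciliated controls: 9 of 9 at an adjusted p under 0.05 alone (29.7% of all genes), 6 without overlap between clones and 3 called. With the libraries of a clone summed 4 passed the adjusted p (Psat1, Shmt2, Aldh18a1 and Pycr1), while Mthfd2 (0.0526), Cth (0.0833), Psph (0.102), Asns (0.130) and Phgdh (0.375) did not. Phgdh also missed the adjusted p over libraries once those that stood apart were left out. The same held without AB, without D8, without A4 or without G7, without replicate 1, 2 or 3, and with scaling by library totals. Psat1 was at 317, 108, 206 and 106 CPM in ciliated and 691, 593, 349 and 656 CPM in non-ciliated controls (log2 fold change -1.63 ± 0.198, SE, adjusted p = 1.96e-08). The highest of its ciliated controls, D8, came close to the lowest non-ciliated control, 2. Cth was at 5.41, 5.83, 5.38 and 1.32 CPM in ciliated and 23.7, 9.74, 6.30 and 13.5 CPM in non-ciliated controls (log2 fold change -1.57 ± 0.273, SE, adjusted p = 1.01e-05), the lowest level being that of G7. Aldh18a1 was at 239, 136, 173 and 97.8 CPM in ciliated and 420.4, 370.2, 244 and 435 CPM in non-ciliated controls (log2 fold change -1.19 ± 0.147, SE, adjusted p = 2.89e-08), where D8 and control 2 again nearly met. Shmt2 and Mthfd2, of mitochondrial one-carbon metabolism, and Pycr1, of proline synthesis, did not overlap between the states either, at log2 fold changes of -0.92, -0.97 and -0.87. Asns was at 222, 89.9, 188 and 97.3 CPM in ciliated and 267, 261, 186 and 293 CPM in non-ciliated controls, where D8 and A4 passed control 2 (log2 fold change -0.75 ± 0.159, SE, adjusted p = 0.000143). Without D8, 10 genes were called lower, Asns, Mthfd2, Pycr1 and Shmt2 among them, where the share of all genes called lower also rose, from 3.99% to 5.59%.

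Of the 5 transcription factors of the Atf4 arm, 4 were higher in ciliated controls at an adjusted p under 0.05 alone (31.2% of all genes) and 0 were lower, while the enzymes that Atf4 is known to induce were lower. Atf4 itself was at 644, 273, 524 and 356 CPM in ciliated and 598, 500.0, 491 and 502 CPM in non-ciliated controls, with a log2 fold change of -0.22 ± 0.137 (SE, adjusted p = 0.170). Without D8, Atf4 was lower at an adjusted p under 0.05 alone, as were 29.9% of all genes. Cebpb, its C/EBP partner, rose from 81.5, 74.4, 104 and 50.7 CPM in non-ciliated to 291, 98.8, 270.5 and 78.8 CPM in ciliated controls (log2 fold change 1.25 ± 0.244, SE, adjusted p = 4.92e-05), but only D8 and A4 stood above the non-ciliated range. Without D8 it was no longer called, and with clones summed its adjusted p was 0.0941. Ddit3, Atf5 and Nupr1 were higher at an adjusted p under 0.05 alone, at log2 fold changes of 0.70, 0.70 and 0.80, but not with clones summed (adjusted p = 0.326, 0.202 and 0.211). All 3 were called once non-ciliated control AB was left out (7.33% of all genes called higher), which had the highest clone mean of the non-ciliated controls for each. Ddit3 missed even the adjusted p alone without control 1, without control 3 or without G7. Of the Atf4 targets grouped as feeding back on signalling or metabolism, Vldlr rose from 195, 117, 312 and 137 CPM in non-ciliated to 312, 413, 309.5 and 753 CPM in ciliated controls (log2 fold change 1.23 ± 0.200, SE, adjusted p = 3.41e-06), with control 2 level with D8 and A4. It was not called without G7, its highest clone, nor with clones summed (adjusted p = 0.0723). Trib3, Chac1 and Sesn2, an inhibitor of the growth kinase mTORC1, had log2 fold changes of -0.39, -0.16 and 0.02 and did not pass.

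The mutant clones, which share no library with the controls, were compared between the states in the same way (3 ciliated against 2 non-ciliated clones, 11972 genes). The fit is over libraries and treats these 5 as separate clones, although the Wdr60 line, and by the study's account a Wdr34 line, stand on both sides. Here 11 genes were called lower and 3 higher, against 6.24% and 10.7% of all genes. At an adjusted p under 0.05 alone, 23 were lower and 8 higher, against 30.7% and 33.7%, and the clone means parted downwards in 19 and upwards in 8, against 28.4% and 27.1%. Of the 17 genes without overlap in controls, 16 were also without overlap, in the same direction, in mutants, the exception being Hyou1 with a log2 fold change of -0.59. That is 94.1%, against 90.5% of the 1469 genes that parted downwards in controls over all genes. The sign was the same in both genotypes for 35 of the 36 genes (97.2%), against 87.5% of 11725 genes tested in both, so that this sharing was close to that of genes in general. Serum and the time of sequencing differed along with the state in mutants just as in controls.

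Hspa5 fell in ciliated mutants too, with a log2 fold change of -1.04 (adjusted p = 5.70e-10), as did Pdia4 with -1.07. Calr had -0.75, short of the limit of 1. For the enzymes the differences were -2.28 for Psat1, -2.71 for Cth, -1.59 for Aldh18a1, -1.40 for Shmt2 and -1.38 for Asns, each called. Atf4 had -0.74 (adjusted p = 1.31e-05), and Trib3 was called lower at -1.13 (adjusted p = 0.000520), where the controls had shown -0.22 and -0.39. The test of the difference, which is the interaction given above, called none of these. Clone means of Trib3 overlapped between the states. Ciliated Wdr34 clone 1 lay above the non-ciliated Wdr34 mutant, and the non-ciliated Wdr60 mutant was far above both. Herpud1 and Dnajb9 were higher in ciliated mutants at 0.99 and 0.69, the first just short of the limit, and neither overlapped between the states. Nupr1 and Vldlr rose, at 1.39 and 1.76. Ddit3 was called higher too, at 1.30, with 46.1, 74.2 and 24.4 CPM in ciliated mutants 1, 3 and Wdr60 and 15.9 and 23.8 CPM in the non-ciliated Wdr34 and Wdr60 mutants, so that the difference lay in the Wdr34 clones.

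The Wdr60 line can be read within itself, as the ratio of its clone mean in ciliated cells to that in non-ciliated cells, with no test since it is 1 line. Its libraries did not all match: non-ciliated replicate 1 stood apart and the ciliated libraries fell into 2 pairs. The means here hold all of them. The ratio was below 1 in 27 of the 36 genes, against 50.9% of all genes, and the median was 0.602, against 0.992 over all genes. The 9 enzymes were all below 1, from 0.139 for Cth to 0.976 for Phgdh, and 8 of them were at 0.5 or less, against 6.25% of all genes. Among chaperones Hspa5 was at 0.589 and Pdia4 at 0.405, and 10 of 13 were below 1. Of the Atf4 arm Ddit3 was level at 1.03, Atf4 was at 0.591, Atf5 at 0.477 and Nupr1 at 1.91. Trib3 and Chac1 were at 0.228 and 0.339, and Vldlr at 2.92 was the one gene of the 36 at 2 or more, against 9.29% of all genes.

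**Figure D4:**
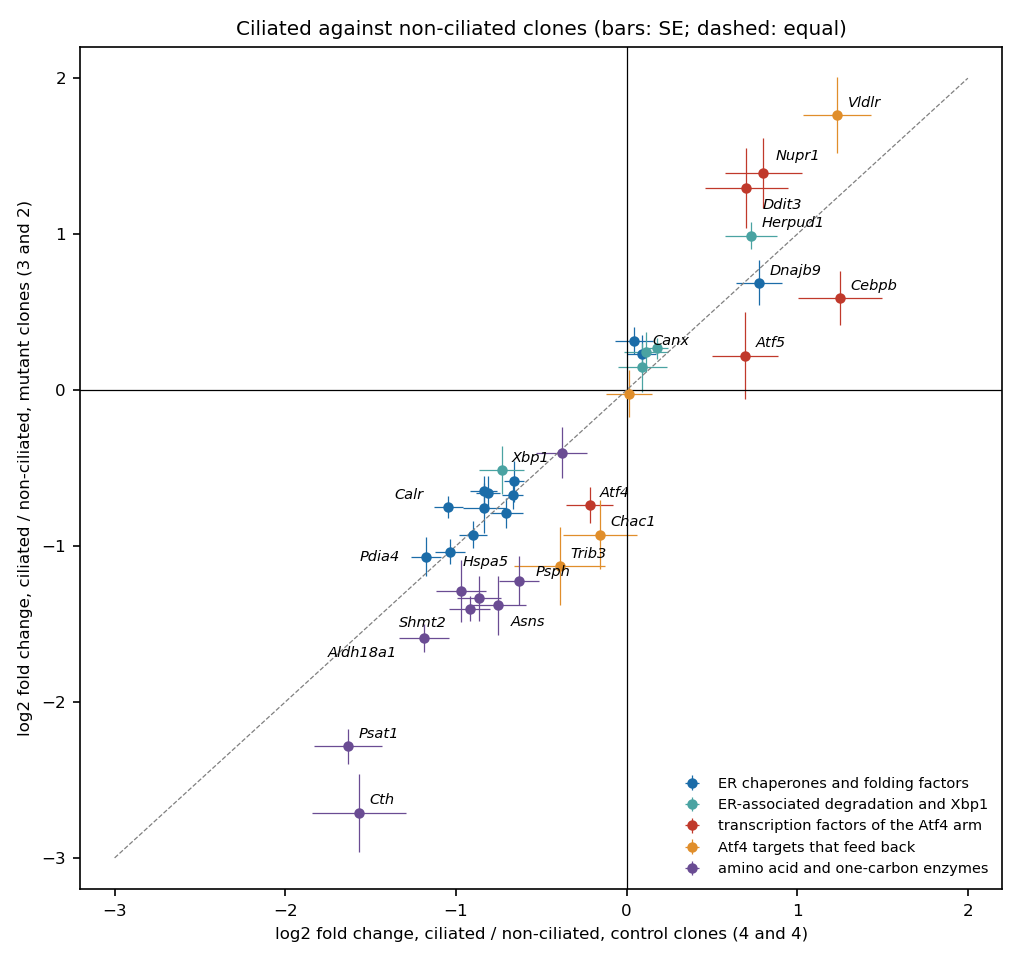
Log2 fold change of ciliated over non-ciliated clones for the 36 genes, in the 4 and 4 control clones (horizontal) and in the 3 and 2 mutant clones (vertical), with SE bars and colours by role. The dashed line marks equal values. Enzymes and most chaperones lie in the lower left, the chaperones Canx and Dnajc3 just above 0 on both axes, Herpud1, Dnajb9, Ddit3, Nupr1, Cebpb and Vldlr in the upper right, and Sesn2, close to 0 in both, is the gene whose sign differs.

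Other genes of the pathway, from lists of 19 sensors and regulators, 20 further ER folding, translocation and degradation genes and 29 further Atf4 targets, were read in the same tests. Between ciliated mutants and controls 0 of them were called, where 0.418% of all genes were called higher and 0.226% lower. At an adjusted p under 0.05 alone Creb3l2 was higher and Ero1l and Mars lower, against 1.58% and 1.59% of all genes. Between non-ciliated mutants and controls 1 was called: Stc2, a secreted stress-induced glycoprotein, at 2.83 and 0.548 CPM in mutants and 9.52, 7.31, 64.2 and 3.64 CPM in controls (log2 fold change -3.65 ± 0.777, SE, adjusted p = 0.00296). Its control mean rests on control 2, which was far above the others. Over all genes 0.491% were called higher and 2.57% lower there, and with the libraries of a clone summed 0 genes were called. By the adjusted p under 0.05 alone, 2 of the 18 sensors and regulators tested were higher and 1 lower, 4 of 19 folding genes higher and 1 lower, and 2 of 27 Atf4 targets higher and 3 lower, against the 7.12% and 7.89% of all genes given above. The folding genes that were higher were Hspa13, Edem2, Sec61b and Sec24d, at log2 fold changes from 0.19 for Hspa13 to 0.52 for Sec61b. In the test of the difference between the states Stc2 (4.02) and Slc7a11 (-2.60), the cystine transporter, were called, against 1.19% of all genes. With the libraries of a clone summed that test called 0 genes. Ciliated controls D8 and A4 held Slc7a11 at 149.6 and 207 CPM and H12 at 4.44 CPM.

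Between the states in controls, 2 of 18 sensors and regulators tested were called higher and 0 lower, with 5 higher and 6 lower at an adjusted p under 0.05 alone and a median of -0.04. Over all genes 6.29% were called higher and 3.99% lower, and by the adjusted p alone 31.2% were higher and 29.7% lower. These shares also stand beside the lists that follow. Eif2ak3, which encodes Perk, was at 163, 80.4, 127 and 93.6 CPM in ciliated and 37.7, 43.4, 52.1 and 68.0 CPM in non-ciliated controls (log2 fold change 1.21 ± 0.132, SE, adjusted p = 2.82e-09). Crebrf, a negative regulator of Creb3, was at 113, 87.1, 100.4 and 174 and 22.1, 10.8, 23.2 and 20.3 CPM, without overlap (log2 fold change 2.64 ± 0.167, SE, adjusted p = 1.97e-14). Of 19 further folding and degradation genes tested 0 were called, with 6 lower and 5 higher at an adjusted p under 0.05 alone and a median of -0.12. Of 27 further Atf4 targets tested 2 fell and 2 rose, with 14 lower and 3 higher at an adjusted p under 0.05 alone and a median of -0.42. Bcat1, a branched-chain amino acid transaminase, fell at -1.72 ± 0.210, and Slc7a11 and the mTORC1 inhibitor Ddit4 rose at 2.31 ± 0.541 and 1.279 ± 0.397 (log2 fold change, SE). Slc7a11 and Ddit4 were above the non-ciliated controls only in D8 and A4. Of 6 proliferation genes read beside the state because serum differs between the states, 0 were called, with Mcm2 higher and Top2a and Ccnb1 lower at an adjusted p under 0.05 alone, and Mki67 was at 366, 407, 362 and 663 CPM in ciliated and 409.6, 502, 511 and 420.0 CPM in non-ciliated controls.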

How the data were processed

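RNA-seq libraries of 13 clones (4 technical replicate libraries each, 52 in all) were analysed. The authors aligned reads to GRCm38/mm10 and counted them per gene with featureCounts, and the deposited values are raw counts per gene symbol. Strand and multimapping settings are not given in the sources used here. The submitters' processing notes name R 3.4.4 and DESeq2 1.18.1. The members and gene lists were chosen with earlier results of these data known.

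Here counts of 14816218 to 28084979 per library were tested with edgeR 4.0.16 (R 4.3.3): genes passing filterByExpr, trimmed-mean-of-M-values (TMM) scaling, and the quasi-likelihood F test with Benjamini-Hochberg adjustment over all genes tested. Genes were called where the adjusted p was under 0.05 and the log2 fold change was 1 or more in either direction. CPM values were scaled over all 52 libraries, and the tests were fitted within the groups compared, so a fold change can differ slightly from a ratio of printed CPM. Clone means of log2 CPM (prior count 2) were compared with exact 2-sided permutation tests. Alternatives were DESeq2 1.42.0, other scaling and count filters, clones summed, a block for the replicate number, voomLmFit (edgeR with limma 3.58.1) with clones as blocks, and each clone or replicate number left out. The state comparison in mutants, the fit without both G7 and control 2, the fit without libraries that stood apart, and scaling by library totals were added after seeing the data. Scripts were tested on simulated data.

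Named with a value in every clone are Hspa5, Dnajb9, Herpud1, Xbp1, Atf4, Ddit3, Trib3, Chac1 and Asns. Members called between the states in controls are given a value in each control clone, and not all of them in every mutant clone. Of the other lists, up to 4 called genes with the largest change per comparison are named. Genes named beyond this were chosen after their values were seen. Of 78 pairs of replicate libraries 0 were identical, and all differed by more than sampling noise (chi-square per degree of freedom 1.99 to 104). A library was taken to stand apart where this was over 25 against each other library of its clone. Patient data of the study are not analysed here.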

Additional observations from a re-analysis of the deposited data

Results flagged for a closer look

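In each group of 4 control clones, a clone was singled out where its gap to the nearest other clone took up more of the group's range than Dixon's limit for 4 values allows. Over 72 such groups 4 were singled out, where chance gives about 1 in 20, or 3.6. Non-ciliated control AB was high in 3 of the genes. Its Atf4 level was 598 CPM, where the other 3 controls lay between 491 and 502 CPM. Its Nupr1 level was 44.0 CPM against 15.5 to 15.8 CPM, and its Trib3 level was 181 CPM against 51.6 to 62.2 CPM. Replicate 1 of AB, which stood apart from its other libraries, was the highest of the 4 in each: Atf4 was at 829 CPM there and at 482 to 569 CPM in the others, Nupr1 at 61.3 CPM and 35.7 to 40.7 CPM, and Trib3 at 213 CPM and 143 to 188 CPM. In ciliated controls, G7 had a Cth level of 1.32 CPM, where the others lay between 5.38 and 5.83 CPM. In the test of the difference in mutant effect between the states, 0 of the 36 genes were called.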

How the results depend on the processing

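Depth limits only the lowest genes, since 1 CPM is at least 14.8 counts. Each group also holds few clones, and the part of this in the counts was not tested. In ciliated mutants against controls the count of genes called stayed at 0 under every alternative run that kept the fold change limit, while at an adjusted p under 0.05 alone leaving out 1 clone gave 0 to 3 higher and 0 to 9 lower. In non-ciliated mutants it was 2 higher and 1 lower at an adjusted p under 0.05 alone, and 0 to 1 higher with 1 clone left out (Psph without the Wdr34 mutant, Cth without the Wdr60 mutant or without AB). By the adjusted p alone, leaving out 1 clone gave 1 to 11 higher and 0 to 4 lower. Between the states in controls, 8 genes were higher and 20 lower at an adjusted p under 0.05 alone. There, clones summed called 0 higher and 5 lower (2.79% and 2.24% of all genes), and voomLmFit 2 and 7 (4.48% and 3.37%). Leaving out 1 clone gave 1 to 5 higher and 4 to 10 lower. The extremes were without D8 (1 and 10, against 6.61% and 5.59% of all genes) and without AB (5 higher, against 7.33%). Without control 1 or without G7, 4 were lower (3.51% and 4.25% of all genes). The mutant clones in place of the controls gave 3 higher and 11 lower (10.7% and 6.24%). Scaling by library totals gave 2 higher and 4 lower (7.09% and 3.58%). For the mutant effect between the states, leaving out 1 clone gave 0 to 3 calls. For single clones, an adjusted p under 0.05 alone gave 3 genes in the non-ciliated Wdr34 mutant and 4 in the non-ciliated Wdr60 mutant (11.5% and 12% of all genes). It gave 2 in ciliated Wdr34 clone 1, 5 in ciliated Wdr34 clone 3 and 6 in the ciliated Wdr60 mutant (2.2%, 20.8% and 6.34%). Clones summed gave 0 calls in each of these 5 clones. With 1 control left out the ranges were, in the same order, 1 to 3, 0 to 3, 0 to 1, 1 to 1 and 1 to 6, and in ciliated Wdr34 clone 3 the gene was Vldlr except without G7, where it was Chac1. Without the 4 libraries that stood apart, 1 gene was called higher in non-ciliated mutants (Cth), 1 in the test of the difference (Cth), 2 in the non-ciliated Wdr60 mutant and 0 in ciliated Wdr34 clone 1, and between the states 2 were higher and 5 lower. The cause of these shifts was not tested.

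The replicate numbers share only a number: the correlation of deviations between same-numbered libraries went down to -0.22 in ciliated and -0.34 in non-ciliated clones, and 0 of 21 and 0 of 15 clone pairs had all values over 0.1. With the replicate number as a block, in non-ciliated mutants 1 gene was higher and 0 lower at an adjusted p under 0.05 alone (5.65% and 5.94% of all genes). Of the 36 genes 0 were called in either mutant comparison or in the test of the difference, and 2 higher and 6 lower between the states. Over all genes the block moved the calls from 77 to 52 in ciliated mutants, 368 to 324 in non-ciliated mutants, 1219 to 1210 between the states and 149 to 112 in the test of the difference. With 1 replicate number left out, 0 to 4 genes were higher and 0 to 2 lower at an adjusted p under 0.05 alone in non-ciliated mutants. Of all genes 1.52% to 10.7% were higher and 1.94% to 11.6% lower there. Calls between the states were then 2 higher and 5 to 7 lower (5.88% to 6.12% and 3.82% to 3.97% of all genes). No member's called value changed sign under any alternative.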
